A study of Drosophila melanogaster with 16 samples.

Results

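Of the 43863 peaks of monomethylated histone H3 lysine 4 (H3K4me1) found at day 10 in the heads of male *Drosophila melanogaster* of strain w1118 on 2L, 2R, 3L, 3R, 4 and X, 34808 overlapped an H3K4me1 peak of day 50 by at least 1 base and are called stable sites here. Among these, 16763 overlapped no peak of acetylated H3 lysine 27 (H3K27ac) at either age. These never-acetylated sites are described here, and they were chosen by their measured overlaps, so the absence of H3K27ac on them and their presence at both ages are the rule and not a result. They made up 48.2% of the stable sites (exact 95% interval 47.6 to 48.7%, counting error only) and 38.2% of the day 10 H3K4me1 peaks. All 4 peak lists together held 137823 peaks on these 6 arms.

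Heads of w1118 males, a white-eyed laboratory strain with no other genetic change named in the labels, were taken at day 50 and at day 10. For each mark and age there were 2 chromatin immunoprecipitation (ChIP) replicates and 2 input replicates, 16 samples in 8 groups. The authors deposited 1 peak list for each mark and age, with both replicates pooled in it, so every value below describes a list, no spread between replicates can be given and no test of age was made. Read depth is unknown. Each replicate pooled 50 mg of heads. A whole head mixes neurons, glia, photoreceptors, fat body, muscle and blood cells, and a mark carried by fewer cells and a weaker mark in the same cells cannot be told apart.

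The cell types were checked by H3K27ac peaks in the gene or within 1000 bp of it. All 4 neuron markers had such a peak at day 50 and at day 10. Photoreceptor markers had one in 3 of 4 cases at day 50 and 2 of 4 at day 10, and ninaC had none. Glia had 2 of 4 at each age, with repo and alrm lacking one, fat body 3 of 4 at each age without Yp1, and hemocytes 2 of 3 without Hml. Of 3 muscle markers 1 had a peak at day 50 and 0 at day 10. A marker without a peak does not show that its cell type was missing from the heads.

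H3K4me1 is deposited at enhancers and along the flanks and bodies of genes, in flies in large part by Trithorax-related (Trr). H3K27ac is added by the acetyltransferase Nejire (CBP) and goes with active enhancers and promoters, and enhancers with H3K4me1 alone are often called primed or poised. Lysine 27 can instead be methylated by Polycomb repressive complex 2, whose classic targets in flies are the Hox genes and other developmental regulators, and a given lysine cannot carry both modifications at the same time.

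Never-acetylated sites were narrower and lower than the stable sites that overlapped H3K27ac at both ages (12941 sites, 37.2% of stable sites). The remaining stable sites were acetylated at day 50 only (2714, 7.80%) or at day 10 only (2390, 6.87%). Their median width at day 10 was 305 bp with quartiles of 208 and 485 bp, against 403 bp with quartiles of 263 and 633 bp for sites acetylated at both ages. The fold enrichment that the authors' peak caller gave each peak had a median of 2.46 at never-acetylated sites, with quartiles of 2.11 and 2.88, against 2.93 at sites acetylated at both ages. In the day 50 peaks that overlapped them, the median fold was 2.58 for never-acetylated sites and 2.96 for sites acetylated at both ages. The order of both medians was the same under each of the 7 alternatives for which they were computed. The widths of the classes overlapped broadly, since the upper quartile of the never-acetylated sites lay above the median of the other class. The rule itself favours this order of widths, because a narrower site has fewer bases that could touch an H3K27ac peak. In 10 groups of equal size ordered by width, 66.0% of the narrowest group (147 to 177 bp) were never acetylated. In the widest group (871 to 7212 bp) the share was 37.9%. How much of the difference in width comes from the rule was not tested. The never-acetylated sites together covered 6.95 Mb, and 88.4% of these bases also lay under H3K4me1 at day 50.

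Stronger H3K4me1 went with fewer never-acetylated sites. When the stable sites were ordered by their day 10 fold and cut into 10 groups of equal size, 73.1% of the lowest group were never acetylated, 49.7% of the fifth and 26.1% of the highest, and the share was lower at each step up. Sites acetylated at both ages took 14.1% of the lowest group and 63.5% of the highest. The strong sites were also placed differently: in the highest group 39.8% of never-acetylated sites lay within 500 bp of a gene end, against 26.2% of sites acetylated at both ages. In the lowest group the shares were 15.0% and 24.4%.

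**Figure D1:**
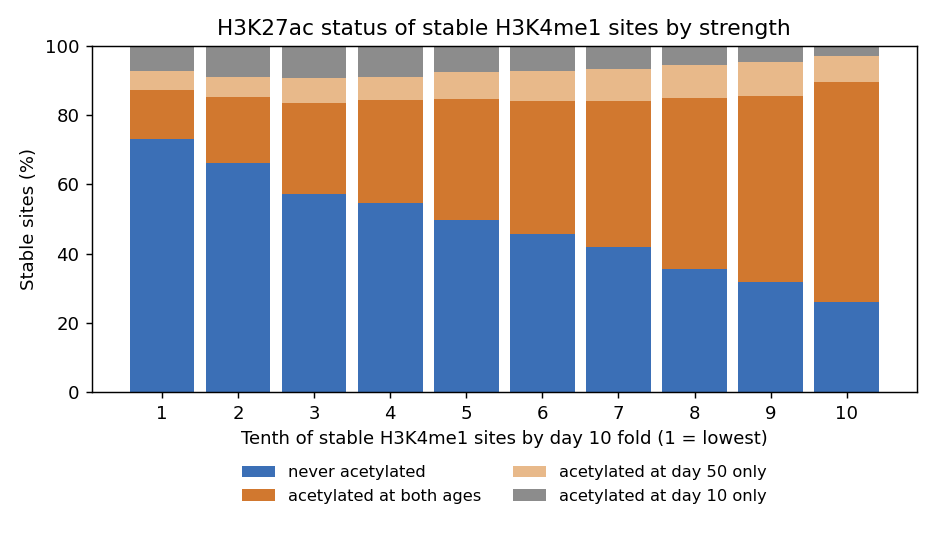
Share of stable H3K4me1 sites (y axis, percent) that were never acetylated, acetylated at both ages, at day 50 only or at day 10 only, in 10 groups of equal size ordered by the authors' day 10 fold (x axis, 1 is the lowest). The never-acetylated share is 73.1% in the lowest group and 26.1% in the highest.

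Relative to protein-coding genes, the sites lay mostly inside gene bodies, but less so than acetylated ones. Gene bodies held 80.6% of never-acetylated sites (13517 sites) and 88.5% of sites acetylated at both ages. More than 1000 bp from any gene lay 13.2% of never-acetylated sites (2205), against 7.24% of sites acetylated at both ages. Seen from the position, 60.5% of the 3644 stable sites more than 1000 bp from a gene were never acetylated (interval 58.9 to 62.1%), against 46.9% of the 21944 in gene bodies away from gene ends and 45.5% of the 8575 within 500 bp of a gene end. The gene table gives both ends of each gene but no strand, so a gene end is either the start or the end of transcription. Within 500 bp of one lay 23.3% of never-acetylated sites and 26.8% of sites acetylated at both ages. This last order depended on peak strength: with the upper 50% of each H3K4me1 list by -log10 q the shares were 33.6% and 30.3%, and with H3K4me1 peaks of -log10 q of at least 5 they were 28.0% and 28.1%.

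The share also varied with the length of the gene around a site. In genes of 2 to 5 kb 57.8% of stable sites were never acetylated, and in genes of 5 to 10 kb 57.9%, but only 38.0% in genes of 20 to 50 kb and 32.8% in genes of 50 to 100 kb. Genes of up to 2 kb (40.7%) and of 100 to 400 kb (45.0%) stood between, where the length is that of the longest gene holding the site.

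On the arms the share of stable sites never acetylated was 49.4% on 2L, 50.5% on 2R, 47.1% on 3L and 48.9% on 3R. Chromosome 4, the small and largely heterochromatic chromosome, had 71.2% (193 of 271 sites, interval 65.4 to 76.5%), and X had 41.4% (1925 of 4648, interval 40.0 to 42.8%). Males carry a single copy of X. The chromosome 4 sites were narrow, with a median width of 220 bp, but not low, with a median fold of 2.66. The strongest of them lay in sv, a Pax homeobox regulator of eye and bristle cells (fold 4.49), in Cadps, a gene of dense-core vesicle release (4.37), and in zfh2, a zinc finger and homeobox gene (4.36). These 3 were picked after their values were seen.

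The sites were mostly not pressed against H3K27ac. The median gap to the nearest H3K27ac peak of either age was 1446 bp, with quartiles of 522 and 4044 bp. The gap was 1805 bp to the peaks of day 50 and 1839 bp to those of day 10. More than 200 bp of gap separated 89.9% of the sites from H3K27ac, more than 1000 bp separated 59.9% (10048 sites), and more than 10000 bp 11.9% (1988 sites). The rule itself cuts through a continuum: 28 sites lay less than 10 bp from an H3K27ac peak, with a median width of 819.5 bp and a median fold of 2.85, while 27 stable sites were acetylated by an overlap of less than 10 bases, with medians of 669 bp and 2.85.

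**Figure D2:**
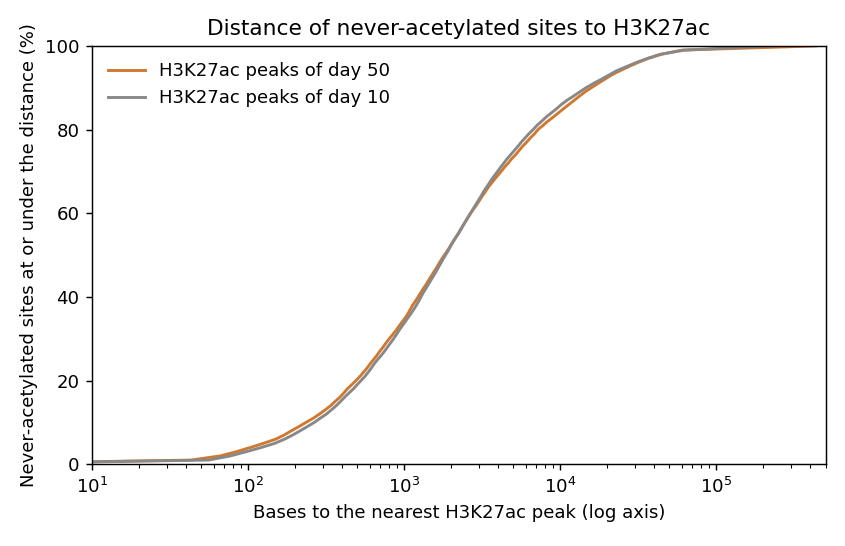
Share of never-acetylated sites (y axis, percent) with an H3K27ac peak of day 50 or of day 10 at or within the distance on the x axis (bases, log axis). The curves nearly coincide, with medians of 1805 bp for day 50 and 1839 bp for day 10.

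The placement of the sites shifted by steps with their distance from H3K27ac. Of sites within 1000 bp of H3K27ac, 87.7% lay in a gene body and 6.73% lay more than 1000 bp from any gene. These shares were 85.3% and 9.99% at 1000 to 5000 bp, and 68.5% and 22.8% at 5000 to 10000 bp. Of sites more than 10000 bp away, 51.3% lay in a gene body and 37.4% more than 1000 bp from any gene. Sites within 1000 bp were also the widest and strongest by median, at 335 bp and a fold of 2.66. The medians were 290 bp and 2.33 at 1000 to 5000 bp, and 280 bp and 2.30 at 5000 to 10000 bp. Farther away they were 297 bp and 2.40.

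More than 50 kb from H3K27ac were 183 sites (1.09%), which formed 36 clusters. The Antennapedia complex, the Hox cluster of head and thorax identity, held 35 of them from pb to Antp over 285 kb, the farthest 195 kb from H3K27ac. The bithorax complex, the Hox cluster of thorax and abdomen, held 19 at Ubx and abd-A over 167 kb, up to 122 kb away. Next came the T-box genes H15 and mid with 14 sites and the Snail-family genes esg and wor with 12. The Osi genes, a cluster of cuticle-associated membrane proteins, had 9. The segment polarity gene pair inv and en had 8 and Sox21b 8. The POU gene nub had 7, the LIM homeobox gene Lim1 7, the spalt-family gene salr 6 and the retinal homeobox gene Rx 5. Other clusters lay at genes of other kinds, with 6 sites at the neuronal surface gene DIP-delta, 5 at DIP-zeta and 4 around ord. These clusters were described after their values were seen. The 5 farthest sites taken by the naming rule lay in dpr21, a gene of the Dpr surface receptors, and in l(3)80Fg. The 3 sites in dpr21 on 2R lay 222 to 224 kb from H3K27ac of day 10 and 432 kb from that of day 50, and those in l(3)80Fg on 3L were 220 and 210 kb away at both ages. Both genes lie towards the centromere of their arm, and the folds of these 5 sites at day 10 ran from 1.87 to 3.11.

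Never-acetylated sites followed one another along the chromosome. The next stable site after a never-acetylated one was also never acetylated in 69.3% of cases, against 48.2% over all stable sites. In all there were 5141 runs of consecutive stable sites with no H3K27ac, of which 1961 were a single site. The 1118 runs of 5 or more sites held 9244 sites (55.1%), and the 256 runs of 10 or more held 3782 (22.6%). Peaks were not merged for these counts, and close neighbours can be pieces of 1 stretch of H3K4me1. Merging peaks within 200 bp gave 11985 never-acetylated sites in place of 16763, and runs were not recomputed on them.

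The longest run covered the Antennapedia complex on 3R from 6664331 to 7065714 (BDGP6), 45 sites over 401 kb with 22.5 kb of site length, and no H3K27ac peak lay in it at day 50 or at day 10. It took in the Hox genes lab, pb, Dfd, Scr and Antp and the early patterning genes zen, bcd and ftz. The second, of 42 sites over 137 kb on 2R from 11453566 to 11590882, ran from E(Pc) through inv and en to tou, again with no H3K27ac peak at either age. The third, of 37 sites over 95.2 kb on 3R from 4814629 to 4909843, surrounded opa, a pair-rule zinc finger gene. It held 2 H3K27ac peaks at day 50 and 3 at day 10, none of which touched a stable site.

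The fourth run lay within pros, a homeobox gene that promotes differentiation in the nervous system. It had 34 sites over 36.9 kb on 3R from 11334331 to 11371262 with no H3K27ac peak at either age. The fifth covered the bithorax complex on 3R from 16672137 to 16933670, 31 sites over 262 kb from Ubx across abd-A to Abd-B, also with no H3K27ac. It shared its number of sites with the run from wat to Pkc98E, which held 6 H3K27ac peaks at day 50 and 4 at day 10. The next 5 runs, named after their values were seen, had 27 to 31 sites each. These were the run from wat, those at the forkhead genes slp1 and slp2, at the Iroquois gene caup, at the zinc finger genes drm, sob and odd, and on 2L around DIP-zeta. Those at caup and at drm, sob and odd held no H3K27ac peak at either age.

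**Figure D3:**
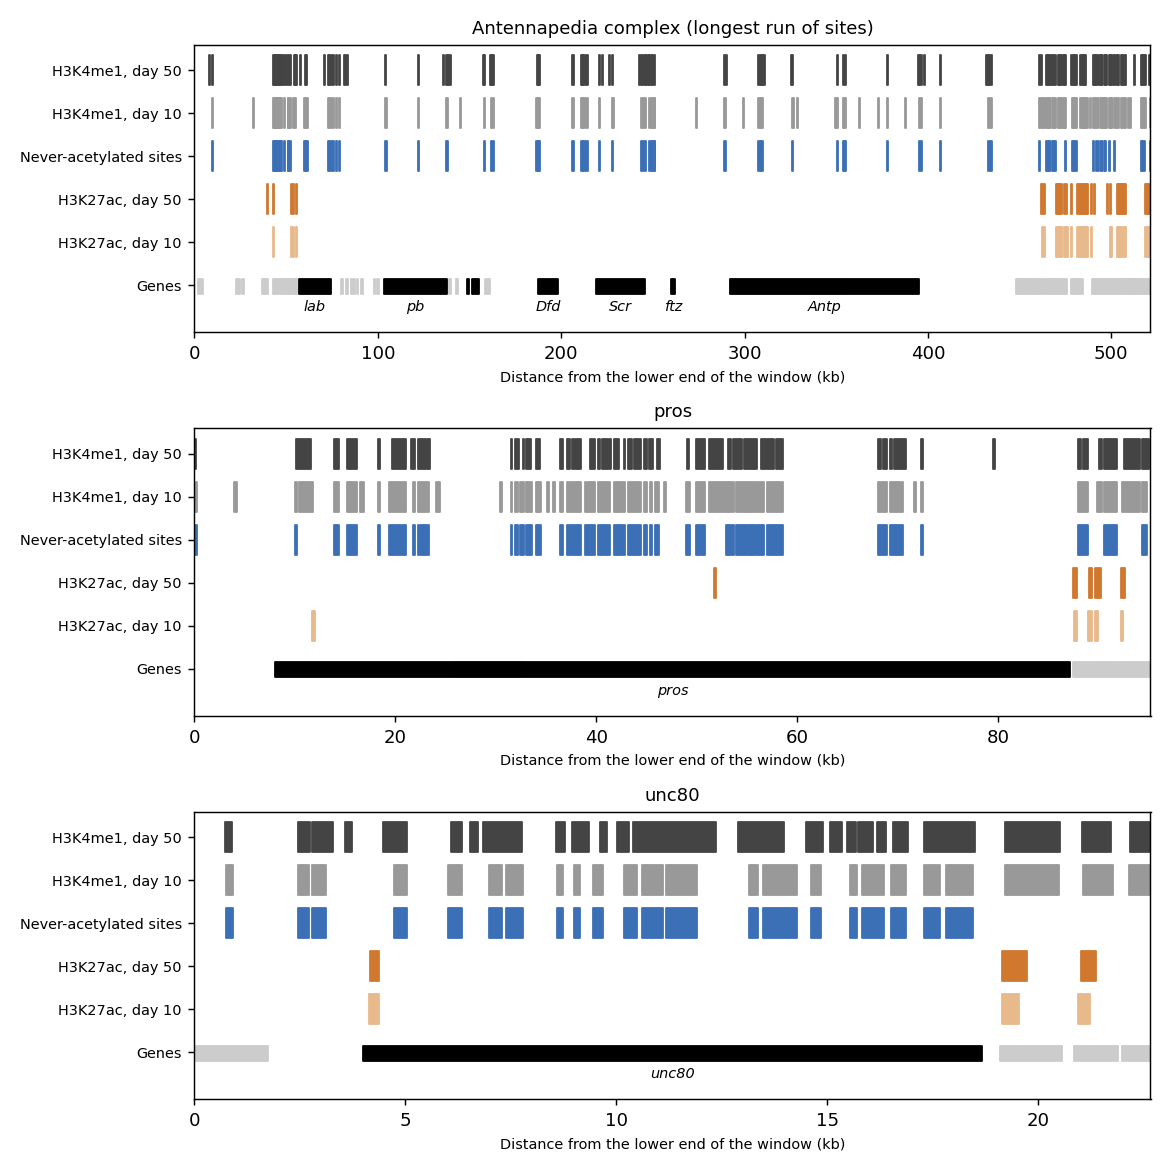
Peaks of both marks at day 50 and day 10 and the never-acetylated sites (rows) at the Antennapedia complex, at pros and at unc80, plotted by distance from the lower end of each window (x axis, kb), with named genes in black (bcd and zen unlabelled) and other protein-coding genes in grey. H3K4me1 dots the Antennapedia complex for 401 kb without H3K27ac, while at unc80 H3K27ac is limited to gene ends and H3K4me1 spreads through the body.

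All 8 Hox genes had never-acetylated sites. Of their 33 stable sites 32 were never acetylated (97.0%), against 45.9% of the 31375 stable sites in all protein-coding genes, where a site in overlapping genes counts for each of them. In 7 of the 8 Hox genes every stable site was never acetylated, a state found in 29.5% of the 8125 genes with a stable site. The exception was Abd-B with 7 of 8 sites, where 1 site was acetylated at day 10 only. No Hox gene had H3K27ac within 500 bp of a gene end at either age, a lack shared by 14.6% of all genes with a stable site (1190 of 8125). The H3K4me1 lengths given here count all peaks in the gene body, stable or not. Antp, the thoracic selector gene, had 3.71 kb under H3K4me1 peaks at day 50 and 4.80 kb at day 10. Its 9 stable sites, all never acetylated, held 3.20 kb at day 10, and the day 50 peaks that overlapped them 3.02 kb. Abd-B, which specifies posterior abdomen, had 5.15 kb at day 50 and 5.02 kb at day 10. Scr had 2.85 kb at day 50 and 2.44 kb at day 10, and Ubx 1.83 kb at day 50 and 1.90 kb at day 10. Some Hox genes thus had more H3K4me1 length at day 50 and others more at day 10.

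A list of other transcription factors of embryonic patterning, drawn up as Polycomb-bound genes, stood next. Its values therefore do not describe patterning factors in general, and Polycomb binding was not measured here. Of 257 stable sites in 54 such genes, 193 were never acetylated (75.1%). Every site was in 41 of the 54 genes (75.9%, against 29.5% of all genes with a stable site). In 42 of the 54 (77.8%, against 14.6% of all genes) there was no H3K27ac at a gene end at either age. The mesoderm regulator twi had 11 of 14 sites never acetylated and the T-box gene bi, known as omb in the eye and optic lobe, 10 of 12. The one with most sites, hth, the homeobox partner of the Hox proteins, was mixed, with 27 of 53 sites never acetylated, 14 acetylated at both ages and 10 at day 50 only. The length under H3K27ac in hth was 9.84 kb at day 50 and 5.89 kb at day 10.

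Transcription factors that work in adult neurons and the eye were closer to all genes, with 275 of 519 sites never acetylated (53.0%) in 39 genes. In 10 of these genes (25.6%) every stable site was never acetylated, against 29.5% of all genes. This list holds pros (48 of 50) and jing (42 of 53), the genes with the most such sites of all, and the ecdysone-response gene br with 20 of 24. These large genes weigh on the pooled share. The median share over the genes of the list was 50.0%, the same as over all genes.

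**Figure D4:**
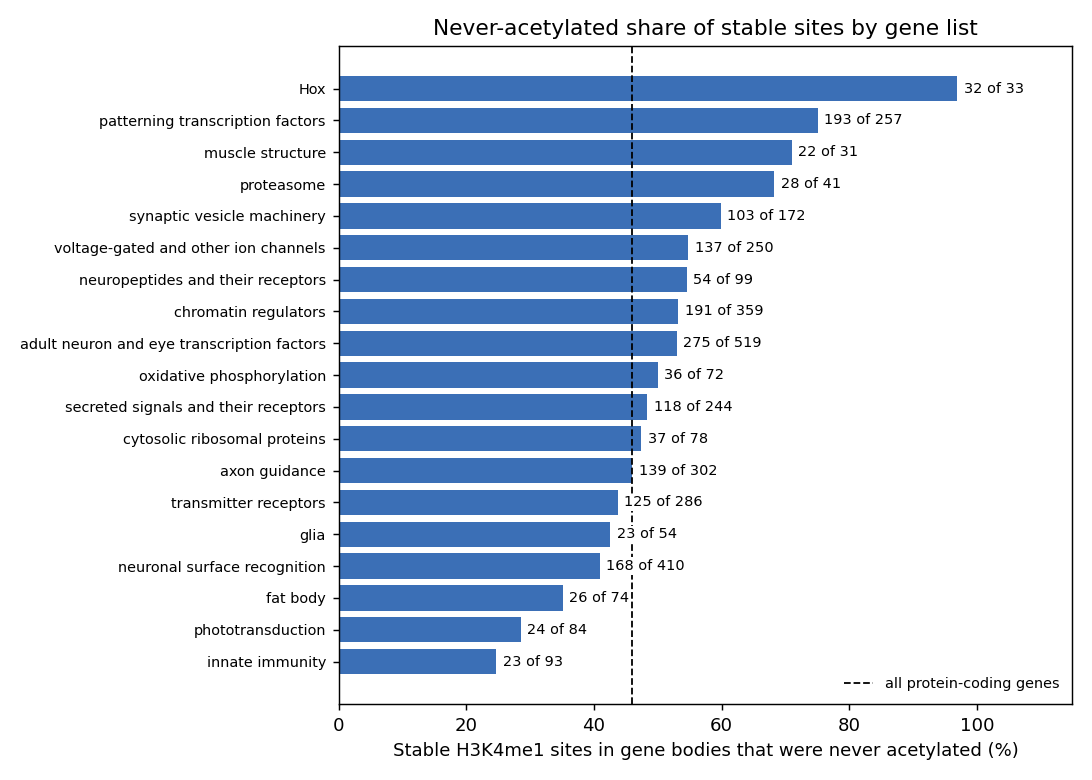
Never-acetylated share (x axis, percent) of the stable H3K4me1 sites whose midpoint lies in the genes of each list, with the number of sites beside each bar and a dashed line at the 45.9% of all protein-coding genes. Hox genes stand at 97.0% and innate immunity genes at 24.7%. The patterning list was drawn up as Polycomb-bound genes.

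Neuronal function genes fell on both sides of the background. Synaptic vesicle genes had 103 of 172 sites never acetylated (59.9%), ion channel genes 137 of 250 (54.8%) and neuropeptide genes with their receptors 54 of 99 (54.5%). These 3 lists were above the share of all genes in the main setting and in all 8 alternatives. Every stable site was never acetylated in Cadps, which primes dense-core vesicles (9 sites), Cirl, the latrophilin receptor (8), and unc80, a subunit of the sodium leak channel complex (18). The same held in the neuropeptide gene Dh44 (4) and the receptor gene CCHa2-R (4). Ca-beta, a calcium channel subunit gene, had 21 of 32 and the potassium channel gene SLO2 18 of 25. The synapsin gene Syn was mixed, with 8 of 17.

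Axon guidance genes were near the background with 139 of 302 (46.0%), and sli, the midline repellent, carried 27 of 33. Transmitter receptors had 125 of 286 (43.7%), with 13 of 19 in the nicotinic subunit gene nAChRalpha6, 10 of 13 in 5-HT7 and 8 of 12 in 5-HT1A. Neuronal surface recognition genes had 168 of 410 (41.0%), with 22 of 39 in Ten-m, 11 of 12 in DIP-gamma and 11 of 13 in Dscam1. These 3 lists crossed the share of all genes in some alternatives, and surface recognition genes reached 61.7% when only H3K27ac peaks of -log10 q of at least 5 counted, against 55.4% for all genes.

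The innate immunity, phototransduction and fat body lists had the lowest shares. Innate immunity genes had 23 of 93 sites never acetylated (24.7%) and fat body genes 26 of 74 (35.1%), and both were below the share of all genes in all 9 settings, with lowest values of 8.60% and 13.2%. Within them Tak1, a kinase of the Imd pathway, had 7 of 10, and the NF-kappaB gene Rel 4 of 8. The fat body gene Lpin, a phosphatidate phosphatase, had 7 of 19, and the acetyl-CoA carboxylase gene ACC 6 of 16. Phototransduction genes had 24 of 84 (28.6%), with 5 of 13 in Calx, the sodium-calcium exchanger, 4 of 6 in the rhodopsin phosphatase gene rdgC and 3 of 9 in the lipid transfer gene rdgB. Their share was above that of all genes in 1 of 9 settings. Glia genes had 23 of 54 (42.6%), with 5 of 8 in the transporter gene Eaat2, 4 of 5 in the septate junction gene Nrx-IV and 3 of 6 in axo.

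Housekeeping lists differed from one another. Proteasome genes had 28 of 41 sites never acetylated (68.3%). Every site was in 18 of 30 genes (60.0%, against 29.5% of all genes with a stable site). A gene with few sites more easily has all of them in 1 class. Rpn1 and Rpn13, genes of the regulatory particle, had 2 of 2 each and Rpn2 2 of 4. All but 1 of the 30 proteasome genes had H3K27ac at a gene end at 1 age or both. It was lacking at both ages in 3.33% of them, against 14.6% of all genes with a stable site. When H3K27ac within 500 bp also counted as acetylation, the list's share of never-acetylated sites was 14.6%, against 33.7% for all genes. Oxidative phosphorylation genes had 36 of 72 (50.0%) and ribosomal protein genes 37 of 78 (47.4%). In each of these lists 1 gene lacked H3K27ac at its ends (2.50% and 1.69%, against 14.6% of all genes). With H3K27ac within 500 bp counted, their shares were 18.1% and 14.1%, against 33.7% for all genes. Muscle structure genes had 22 of 31 (71.0%), but only 5 of the 25 matched genes had a stable site, 17 of the 31 sites lay in Tm1 and 10 in Zasp52, and muscle markers carried H3K27ac in 1 of 3 cases at day 50 and in 0 at day 10. The share was 43.8% with H3K4me1 peaks of -log10 q of at least 5 and 35.7% with the upper 50% of each list, against 40.1% and 35.6% for all genes. The part of few muscle cells in this share was not tested.

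Secreted signals and their receptors had 118 of 244 sites never acetylated (48.4%). The Alk ligand gene jeb had 14 of 15, the insulin receptor gene InR 10 of 30 and the Dpp receptor gene tkv 9 of 15. Chromatin regulator genes had 191 of 359 (53.2%) in 47 genes, of which 2 (4.26%, against 14.6% of all genes) lacked H3K27ac at their ends at both ages. The gene with most sites was jing, with 42 of 53, which is also on the adult neuron and eye list. Kdm4B, a histone demethylase gene, had 13 of 18 and trx, the founding Trithorax gene, 13 of 23. The median share over the chromatin regulator genes was 56.5%, against 50.0% over all genes. With the upper 50% of each H3K4me1 list, against 35.6% for all genes, the share was 35.4% for chromatin regulators, 28.7% for secreted signals, 33.6% for the adult neuron and eye factors, 27.1% for transmitter receptors and 24.0% for glia.

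By number of sites, large regulator genes led. Never-acetylated sites fell in 5513 genes, and 159 genes had 10 or more. The nuclear receptor genes Eip75B and Hr4 had 40 of 68 and 35 of 38 stable sites never acetylated, jing, which encodes a zinc finger protein of Polycomb repressive complex 2, had 42 of 53, and pros 48 of 50. Mur2B had 30 of 35, and it overlaps br on X, so that these genes share sites. The RNA-binding genes bru3 and pum had 24 of 30 and 24 of 46, and the BTB factor gene bab1 had 23 of 26. In all 10, hth and sli included, less length was under H3K4me1 at day 50 than at day 10, as in 1092 of all 1773 genes with at least 5 stable sites. In pros it was 22.2 kb at day 50 and 26.2 kb at day 10, in Hr4 17.18 kb at day 50 and 20.3 kb at day 10, and in bru3 10.6 kb at day 50 and 16.2 kb at day 10. The smallest relative difference was in hth, with 20.3 kb at day 50 and 21.4 kb at day 10.

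Genes in which every one of at least 5 stable sites was never acetylated numbered 191, or 10.8% of the 1773 genes with that many stable sites. They split into 2 kinds by their gene ends. In 109 (57.1%) an end carried H3K27ac within 500 bp at both ages, in 67 (35.1%) at neither age, and in 15 at 1 age. Among the other 1582 genes 81.7% had an acetylated end at both ages and 11.8% at neither. A gene-end peak can belong to a neighbouring gene, as at pros in the map of peaks. The split by gene ends was made after seeing the data.

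The first kind joined an acetylated end to unacetylated H3K4me1 sites in the body. The 12 with most sites include unc80 (18 sites), puf, a deubiquitinase gene (17), Taf1, the largest subunit of the basal factor TFIID (12), and Pcf11, a factor of mRNA 3' end cleavage (11). Also among them were E(Pc), a subunit of the Tip60 acetyltransferase complex, the proton pump subunit gene Vha44 and the translation factor gene eIF4G2, each with 11, and the regulators apt (16), Drgx (13), Ets21C (11) and TfAP-2 (11). The second kind had no H3K27ac at either end. The 12 with most sites include pnt, the ETS factor of EGF receptor signalling (17 sites), L, a gene of eye growth (13), sr, the EGR-type factor of tendon cells (13), and Antp and Ets96B (9 each). Others were MSAmiP in the bithorax complex (13), the channel complex gene unc79 (10), wat (11), Cadps on chromosome 4 (9) and Cnot4 (9). CG17724 (11) overlaps most of Kdm4B and shares sites with it.

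The first kind had more H3K4me1 length in the body at day 50 than at day 10, and the second kind was close to all genes. In the 109 genes with an acetylated end, H3K4me1 peaks covered 430 kb of gene body at day 50 and 365 kb at day 10. The length was larger at day 50 in 88 genes and smaller in 21, and the median ratio of day 50 to day 10 was 1.16 (quartiles 1.03 and 1.38). In the 67 genes without an acetylated end they covered 221.5 kb at day 50 and 244 kb at day 10, with 26 genes larger, 41 smaller and a median ratio of 0.956. Overlapping genes, such as stnA and stnB, count separately in these lengths and counts, so bases they share count for each. Over all 1773 genes with at least 5 stable sites 680 were larger at day 50 and 1092 smaller, with a median ratio of 0.951. Among all 1402 of these with an acetylated end 570 were larger and 831 smaller, with a median of 0.964, and among all 254 without one 69 were larger and 185 smaller, with a median of 0.893. At least 1.5 times more length at day 50 was found in 15 of the 109 genes and 2 of the 67, against 3.10% of all 1773, and at least 1.5 times less in 4 of the 109 and 10 of the 67, against 6.77%.

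Single genes showed the size of these differences. puf had 10.6 kb under H3K4me1 at day 50 and 7.11 kb at day 10, unc80 9.07 kb at day 50 and 6.74 kb at day 10, and E(Pc) 7.37 kb at day 50 and 4.43 kb at day 10. In Taf1 it was 5.75 kb at day 50 and 4.01 kb at day 10, with H3K27ac at 0.227 kb at day 50 and 0.199 kb at day 10. TfAP-2 ran the other way, with 4.67 kb at day 50 and 5.90 kb at day 10. So did na, named after its values were seen, with 1.27 kb at day 50 and 4.69 kb at day 10. Of the second kind, L had 6.76 kb at day 50 and 7.86 kb at day 10, and pnt 7.31 kb at day 50 and 7.44 kb at day 10. An exception here was unc79, which had 7.15 kb at day 50 and 5.44 kb at day 10 and no H3K27ac at either age. Under the alternatives the median ratio of the 109 genes' kind ran from 1.04 to 1.17, and that of the other kind from 0.900 to 1.00. With the upper 50% of each list the 2 medians were 1.04 and 1.00, so the second kind no longer had less H3K4me1 at day 50. No replicate spread bears on these ratios, and depth was not known.

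**Figure D5:**
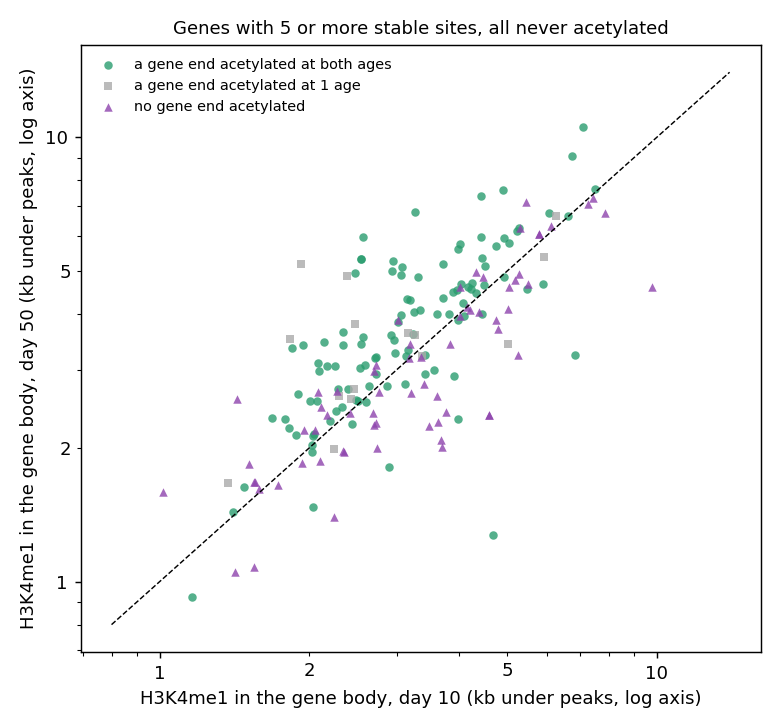
Length under H3K4me1 peaks in the body of the 191 genes whose 5 or more stable sites were all never acetylated, at day 50 (y axis, kb) and day 10 (x axis, kb), both log axes, by whether a gene end carried H3K27ac. Points above the dashed line of equality have more at day 50, as 88 of 109 genes with an end acetylated at both ages do.

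Site by site, the width at the other age varied more at never-acetylated than at acetylated sites. Every peak of the other age counted at its full width for each site it overlapped. A wide peak over several sites can thus make each of them count as wider. Day 50 peaks were at least 1.5 times as wide as the day 10 site at 21.5% of never-acetylated sites (3611) and 7.91% of sites acetylated at both ages, against 15.1% of all stable sites. They were at least 1.5 times narrower at 7.95% (1332) and 6.36%, against 7.55% of all stable sites. This is not a one-way change with age. When the sites were taken from the day 50 list instead, the day 10 peaks were at least 1.5 times as wide at 19.0% of never-acetylated sites and 13.8% of sites acetylated at both ages, and narrower at 8.04% and 3.04%. Which age looked wider thus depended on the list from which the sites came. By distance from H3K27ac there was no steady order: day 50 peaks were wider at 19.1% of sites within 1000 bp, 27.5% at 1000 to 5000 bp, 18.8% at 5000 to 10000 bp and 12.5% farther away. They were narrower at 5.82%, 7.76%, 11.4% and 12.98% of the sites in these classes.

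The 10 strongest never-acetylated sites lay in or outside genes of several kinds. The highest folds at day 10, 5.58 and 5.35, belonged to sites on 2R from 13040384 to 13040950 and from 13039493 to 13039767, about 4 and 5 kb outside CG13323. Their day 50 folds were 4.27 and 5.04, and H3K27ac lay 1.07 kb and 0.177 kb away at day 50. A site 38 bp from the LIM homeobox gene Awh had a fold of 4.32 at day 50 and 5.22 at day 10 and was 14.6 kb from H3K27ac. At H15, a T-box gene, the fold was 5.54 at day 50 and 5.00 at day 10, with H3K27ac 61.7 kb away. Sites in the heart gene tin, 6416 bp outside caup and in the homeobox gene unpg were also among the 10, with day 10 folds of 5.12, 4.95 and 4.93. The rest lay in the proteasome genes Rpn6 (5.10) and Prosalpha6 (5.00) and the mRNA decapping gene Edc3 (4.99), each within 0.712 kb of H3K27ac. The sites nearest to Awh, H15 and caup were at least 14.6 kb from H3K27ac, and those at tin and unpg 1.44 and 2.64 kb.

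The 10 widest never-acetylated sites lay in genes of several kinds, genes for chromatin proteins among them. How often other sites lie in such genes was not computed. The widest of all was in trr itself, the gene of the H3K4 monomethyltransferase named above, on X from 1882042 to 1889253, and measured 7.10 kb at day 50 and 7.21 kb at day 10. The second lay in Chd1, a chromatin remodeller that binds methylated H3K4 in vertebrates, with 6.60 kb at day 50 and 6.34 kb at day 10. ash1, an H3 lysine 36 methyltransferase of the Trithorax group, had 4.63 kb at day 50 and 4.38 kb at day 10. Ncoa6, which encodes a partner of Trr in its complex, had 6.05 kb at day 50 and 4.18 kb at day 10. The others lay in rhea, the talin gene (5.03 kb at day 50, 5.05 kb at day 10), mask (4.29 kb at day 50, 4.36 kb at day 10), the exoribonuclease gene pcm (3.75 kb at day 50, 3.87 kb at day 10) and velo (3.61 kb at day 50, 3.65 kb at day 10). Rbcn-3A, a regulator of the vesicular proton pump, had a pair of them, of 4.61 and 4.59 kb at day 50 and 3.74 and 3.72 kb at day 10. The nearest H3K27ac peak of either age lay 0.341 to 4.98 kb from these 10 sites. Their folds at day 10 were between 2.69 and 3.51, above the median of 2.46 of all never-acetylated sites.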

How the data were processed

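Chromatin of fly heads was cut with micrococcal nuclease and sonicated before ChIP, per the labels' protocols; any bias of this step towards open chromatin was not tested. Tools listed in the submitters' processing notes, whose roles are not given there, were MACS2 2.1.1, STAR 2.5.3a, deepTools, FastQC and Trim Galore, and the build was BDGP6. The deposited peak names show that both replicates were pooled. Fold (a ratio over local background) and -log10 q per peak were deposited by the authors, and every deposited -log10 q was at least 1.30. A threshold on q admits more and wider peaks in a deeper library, and depth is unknown.

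Overlaps, gaps and shares were computed with Python 3.11.15, pandas 2.3.3 and numpy 2.4.6, and exact Clopper-Pearson intervals with scipy 1.17.1. The classification was checked on simulated peaks. Gene positions came from RefSeq's Release 6 table (13911 protein-coding genes on the 6 arms), which gives no strand or exons, so the planned 500 bp around gene starts became 500 bp around both ends, and promoters, exons, introns and UTRs could not be told apart. A site belonged to a gene if its midpoint lay in the body. Genes can share sites. No genome was used, so no sequence, motif or base content is given.

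The members and the 19 gene lists were chosen with earlier results of these data known. Of 803 list symbols 785 matched the table and 18 were left out. Named genes were those with most sites, those with at least 5 stable sites all never acetylated, the strongest, widest and farthest sites, the 5 longest runs and the 3 leading genes of each list. The columns of other samples numbered 0. Peaks on other sequences are given apart. Alternatives changed the overlap, the peaks used, the age the sites come from, the merging of peaks and the gene windows.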

Additional observations from a re-analysis of the deposited data

Results flagged for a closer look

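Outside the 6 arms, 8 day 10 H3K4me1 peaks lay on other sequences, and 6 of them were stable and never acetylated. The count is drawn to attention because these sequences take no part in the comparisons above. All of the stable peaks there lacked H3K27ac at both ages, against 48.2% on the 6 arms, but 6 sites are too few to describe further.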

How the results depend on the processing

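The never-acetylated share, the medians of width and fold, the positions, the chromosome 4 share, the width classes and the all-never genes were recomputed under each alternative, and the values that moved follow. With 50% of the day 10 peak required under day 50 H3K4me1, the share was 47.6%, the median width 301 bp, the share near gene ends 23.9% and narrower sites 4.66%. With H3K27ac within 500 bp counted, these were 36.5%, 294 bp, 18.7% and 8.77%, the median fold was 2.37, wider sites 23.1% and all-never genes 102. With H3K4me1 of -log10 q of at least 5 there were 10247 sites (41.7%), 371 bp, fold 2.75, 28.0% near ends, 18.6% wider, 5.96% narrower and 97 genes. With the upper 50% of each list there were 6057 sites (37.0%), 440 bp, fold 2.99, 33.6% near ends, 65.1% on chromosome 4, 14.66% wider, 4.85% narrower and 42 genes. With H3K27ac of -log10 q of at least 5, the share was 57.6%, the width 313 bp, 22.02% lay near ends, chromosome 4 had 78.2%, 19.7% were wider and 8.38% narrower. Taken from the day 50 list, the sites had a day 50 fold of 2.55 and 19.0% were wider at day 10. With peaks within 200 bp merged, the share was 43.2%, the width 349 bp, 24.6% lay near ends, 19.5% were wider, 12.1% narrower and 87 genes all-never. A gene-end window of 1000 bp held 36.5%. Fewer or merged peaks make fewer genes reach 5 sites; the cause of the other moves was not tested. No paired analysis was possible because each list pools both replicates, and for the same reason no replicate could be left out. The motif alternatives were not run. Unknown depth limits all comparisons of ages: a site without a peak is below the caller's threshold, not shown to lack the mark.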
